A study of Mus musculus with 4 samples.

Results

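Mxd1-high goblet cells of the small intestine were 399 of 3746 kept cells in the libraries of its 8th section (Si8), 289 of 1509 in Si8 1 and 110 of 2237 in Si8 2. They were chosen by level and not by position in the tissue. Kept barcodes had at least 500 genes and at most 20% mitochondrial unique molecular identifiers (UMIs), and levels are UMIs per 10,000 of the barcode. A cell was chosen when Mxd1 was at least 3 with at least 2 UMIs, Zg16 was at least 500, and Apoa1, Apoa4, Sis and Alpi together were under 10. These 6 genes chose the cells, so their values are given as a description. The whole series held 10827 barcodes. No measurement of position was made, so the surface or villus tip location that the working name of these cells implies could not be checked, other than by genes.

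Goblet cells make the mucus of the gut, a gel of the mucin Muc2 to which Fcgbp, Clca1, Zg16 and Tff3 are added. They leave the crypt, move up the villus and are shed at its tip. Mxd1 encodes a repressor that pairs with Max and binds the same E-box sites as Myc, and it is known from cells that have stopped dividing. Zg16 is a lectin of mucus, Krt20 a keratin of differentiated surface epithelium, Ido1 the enzyme that opens the ring of tryptophan, and Clca1 a secreted metalloprotease of mucus.

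The study set 2 Si8 libraries beside 2 of the distal colon (DC). All came from RedMUC298trTg mice, 6 to 8 weeks old. Epithelium was released with EDTA and DTT, digested with collagenase and DNase, and live cells were sorted on mCherry against a C57Bl6 control, then prepared with 10x Genomics single cell v2 chemistry. What drives the mCherry signal is not described in the labels. The labels do not say if the sorted cells were all mCherry-positive, nor from how many animals each library was made. P-values between tissues therefore measure the spread between these libraries. Those between populations of the same libraries measure how their difference varied from library to library. Either spread may be technical, and the sort itself can set shares of cells. The labels name no treatment or deletion.

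Depth differed between libraries and moved with membership. The 4 libraries held 26075303 to 66880457 UMIs. The shallowest barcode had 4006 UMIs in Si8 1 and 7708 in Si8 2, so the files hold shallower cells in Si8 1. Between 1 and 16 barcodes were shared by any pair of libraries, and none by the chosen cells of Si8 1 and Si8 2. A doublet caller's own threshold marked 0 to 14 barcodes a library and so did not work. Among the barcodes with the highest scores were 2 of the chosen cells in Si8 1 and 0 in Si8 2.

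The share of kept cells was 19.2% in Si8 1 (exact Clopper-Pearson 95% interval 17.2 to 21.2) and 4.92% in Si8 2 (4.06 to 5.90), intervals that cover counting error only and do not overlap. Of cells that met the Zg16 and absorptive criteria, 39.8% of 726 and 13.6% of 810 also met the Mxd1 criterion. Among barcodes of at least 10000 UMIs the shares were 9.07% of 1036 and 4.26% of 2087. The order of the libraries was the same, and the gap was smaller. Of the 289 cells of Si8 1, 195 had under 10000 UMIs, against 21 of the 110 of Si8 2.

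Cells lay close to the thresholds on both sides. In Si8 1 the nearest values inside and outside were 3.003 and 2.96 for Mxd1, 503 and 494 for Zg16, and 9.98 and 10.0 for the absorptive sum. In Si8 2 they were 3.01 and 2.95, 569 and 460, and 9.36 and 16.5. A further 56 and 7 cells with enough Mxd1 failed on Zg16 alone, and 43 and 17 failed on the absorptive genes, 28 and 6 of them on these alone.

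The comparison cells were the goblet cells that met the Zg16 and absorptive criteria and failed that for Mxd1, called here goblet cells with lower Mxd1. Likeness between populations was not measured. There were 437 in Si8 1 and 700 in Si8 2. Against them the Mxd1-high cells were shallower, with a median of 7246 and 14953.5 UMIs in Si8 1 and Si8 2 against 19357 and 19261.5. They held a median of 1523 and 2361.5 genes against 3173 and 3113. After each cell was thinned to 4000 UMIs, genes per cell were 1033 and 1064.5 against 1233 and 1200, so fewer genes were seen also at equal depth. Mitochondrial UMIs took 1.38% and 1.83% against 2.82% and 2.73%. A set of 7 goblet genes took 43.4% and 44.8% of all UMIs against 29.6% and 30.9%. In cells with enough Mxd1 that failed on the absorptive genes alone, the set took 43.7% and 32.2%, and mitochondrial UMIs 1.22% and 3.11%. In those that failed on Zg16 alone, the set, which includes Zg16, took 26.5% and 20.4%, and mitochondrial UMIs 2.25% and 4.51%. In bulk sums over cells, fewer transcripts per cell and a shift of share to a few genes cannot be told apart.

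The 5 markers given for these cells were all higher than in goblet cells with lower Mxd1. Mxd1 stood at 11.1 and 6.08 UMIs per 10,000 in Si8 1 and Si8 2, against 0.861 and 0.754 in goblet cells with lower Mxd1. Zg16 stood at 1635 and 2093 against 1021 and 1169. Mxd1 and Zg16 were used to choose the cells, and the 3 other markers were not.

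Krt20 was 21.98 and 16.5 per 10,000 against 7.20 and 8.70, and every one of the 399 cells held a Krt20 UMI. Per cell it ran from 1.91 to 83.2 in Si8 1, with a median of 17.9, and from 4.58 to 46.9 in Si8 2, with a median of 14.7. Clca1 was 166 and 160 against 83.1 and 86.9. Both libraries lay above both comparison values for each gene.

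Ido1 separated the populations most among the 5 markers. It was 21.2 and 7.76 per 10,000 in the Mxd1-high cells, against 0.281 and 0.193 in goblet cells with lower Mxd1 and 0.481 and 0.0969 in all other kept cells. An Ido1 UMI was found in 87.2% and 70.9% of Mxd1-high cells and in 21.7% and 18.0% of those with lower Mxd1. At 4000 UMIs per cell these shares were 82.7% and 53.6%, against 8.24% and 6.43%. In defensin-rich cells the unthinned shares were 43.8% of 16 and 47.8% of 46 cells, and the level was 0.122 and 0.0802 per 10,000. Their depth was much greater, with medians of 45132 and 89724 UMIs. Whether these UMIs came from the cells or from free RNA was not tested. The level in Mxd1-high cells was far above that in the defensin-rich cells, and the level in goblet cells with lower Mxd1 was between the 2.

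**Figure D1:**
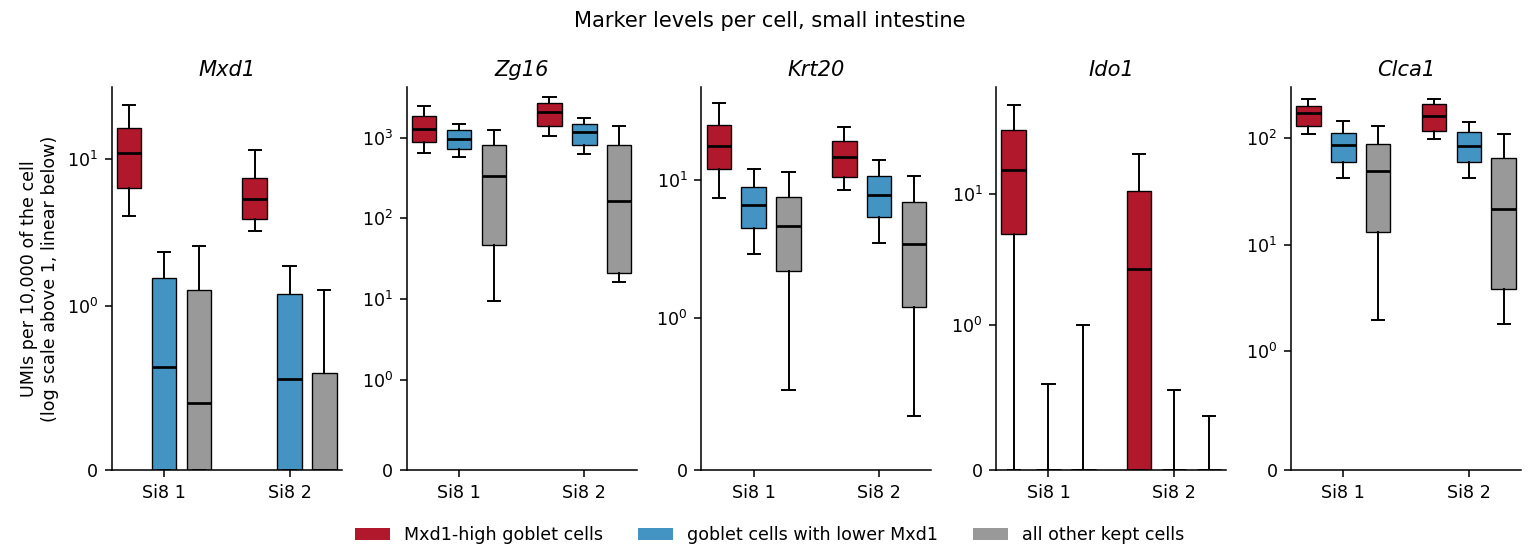
Levels of the 5 markers per cell in UMIs per 10,000, on an axis that is logarithmic above 1 and linear below, for Mxd1-high goblet cells, goblet cells with lower Mxd1 and all other kept cells, which include the latter; boxes give quartiles and median and whiskers the 10th and 90th percentile over cells. The median of Ido1 was 15.2 in Si8 1 and 2.70 in Si8 2 in Mxd1-high cells and 0 in the other populations.

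The Mxd1-high cells held goblet markers, and many defining markers of other types were at 0. All 25 goblet markers were detected, summing to 2823 and 2529 per 10,000, against 2146 and 2134 in goblet cells with lower Mxd1. Of the 12 stromal markers 11 were at 0 in each library, against 10 and 9 in goblet cells with lower Mxd1. The 15 immune markers summed to 0.569 and 0.215 per 10,000, against 1.26 and 0.712. Ptprc, Cd3e, Cd3g, Cd8a, Cd79a and Tyrobp were at 0 in both libraries. The 13 stem markers summed to 0.424 and 0.519, against 1.73 and 1.32, with Lgr5, Ascl2 and Tnfrsf19 at 0 in both. The 10 tuft markers summed to 0.0290 and 0.0477, against 0.0208 and 0.0508, with 6, Dclk1 among them, at 0 in each library. Goblet cells with lower Mxd1 shared some of these zeros, such as Ptprc, Cd3e, Cd79a and Tyrobp in both libraries.

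Markers of 3 other epithelial types were present. The 16 enteroendocrine markers summed to 12.1 and 10.9 per 10,000, above the 9.45 and 6.81 of goblet cells with lower Mxd1 and the 7.20 and 4.07 of all other kept cells. Sct, which encodes secretin, made up most of this sum, at 11.6 and 10.7 against 6.15 and 6.12, while Neurod1, Scg2, Cck, Tph1, Sst, Gip and Neurog3 were at 0 in both libraries. The 19 enterocyte markers outside the rule summed to 108 and 129, against 132 and 147 in goblet cells with lower Mxd1. In the fit described further on, 3 of 13 enterocyte markers were higher and 0 lower at a median log2 difference of 0.31, which is opposite to the sums and turned to -0.07 with library totals. The 14 Paneth markers summed to 36.0 and 39.2, against 48.4 and 84.8. The part of free RNA from other cells in these levels was not tested.

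The Mxd1-high cells were not alike in Ido1. In Si8 1, 12.8% had no Ido1 UMI and 60.6% had 10 or more per 10,000, and the latter held 94.1% of all Ido1 UMIs of the group. In Si8 2, 29.1% had none and 25.5% had 10 or more, with 78.5% of the UMIs. Median depth was nearly equal across the Ido1 ranges of a library, 7207 to 7403 UMIs in Si8 1 and 13786 to 15139 in Si8 2.

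Other genes moved along with Ido1 inside the group. Mxd1 was 5.15 per 10,000 in Ido1-free cells of Si8 1 and 14.4 in those with 10 or more, and 4.32 and 8.91 in Si8 2. Krt20 was 12.1 and 27.9 in Si8 1, and 11.9 and 23.6 in Si8 2. Agr2, a protein disulphide isomerase of the goblet endoplasmic reticulum, went the other way, from 212 to 46.1 in Si8 1 and from 241 to 103 in Si8 2. These ranges were set after the values had been seen.

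Across single cells of a library, Spearman's rho between Mxd1 and Ido1 was 0.56 over 289 cells and 0.53 over 110, and at 4000 UMIs 0.47 and 0.41. Between Ido1 and Krt20 it was 0.56 and 0.57, and 0.50 and 0.51 at 4000 UMIs. Mxd1 and Zg16 were weakly related, at 0.10 and 0.35. The correlations are descriptive, since cells share a library and depth, and depth itself had a rho of -0.29 and -0.31 with Mxd1.

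Over 4 ranges of Mxd1 in Zg16-high cells, the levels of Ido1, Krt20, Clca1, Fcgbp, Muc2, Cldn4, Agr2 and the ribosomal protein genes had the same order in both libraries. The order differed between libraries for others, such as Spdef, a goblet transcription factor, which at 6 and more was 2.46 in Si8 1 and 1.47 in Si8 2, against 1.86 and 1.79 at no Mxd1. Ido1 was 0.152 and 0.0735 per 10,000 in cells with no Mxd1, 4.42 and 4.77 in those with 3 to under 6, and 28.3 and 13.96 in those with 6 and more. Fcgbp, which encodes a large mucus protein, was 101 and 118.1 at no Mxd1 and 362 and 371 at 6 and more. Muc2 was 119.5 and 128 at no Mxd1 and 235 and 243 at 6 and more.

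Components of protein synthesis were lower over the same ranges. Agr2 was 299 and 288 at no Mxd1 and 57.1 and 79.5 at 6 and more. Ribosomal protein genes together went from 1265 and 1334 to 230.1 and 262. Median depth was 18860 and 18189 UMIs at no Mxd1 and 6864 and 12040 at 6 and more, and with each cell thinned to 5000 UMIs the ribosomal sums were 1238 and 1306 against 229.7 and 264.

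**Figure D2:**
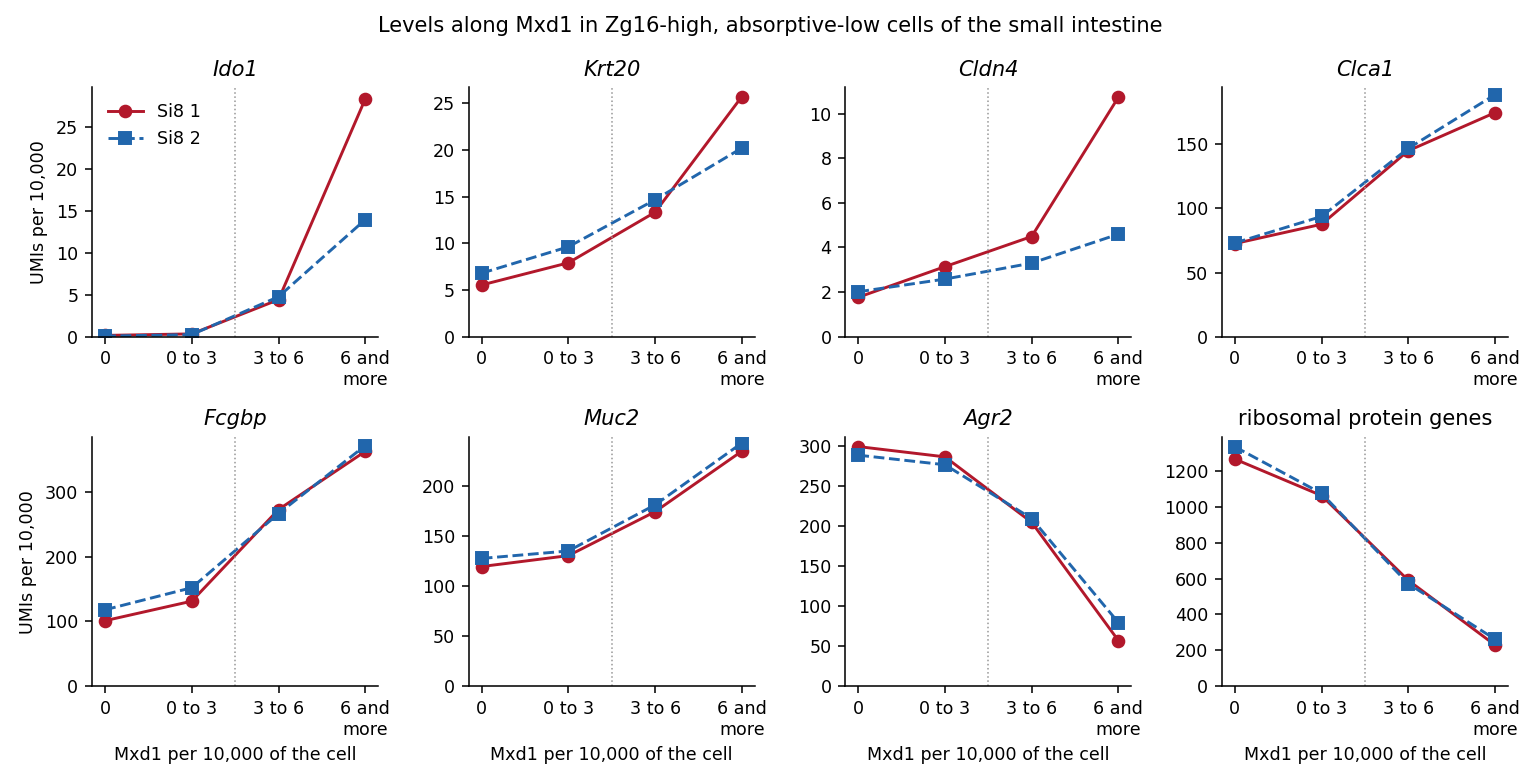
Mean level in UMIs per 10,000 of 7 genes and of ribosomal protein genes together, over 4 ranges of Mxd1 in cells that met the Zg16 and absorptive criteria, by library; cells to the right of the dotted line met the rule. Ido1 was under 0.5 to the left of the line in both libraries and reached 28.3 and 13.96 at Mxd1 of 6 and more.

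Against all other kept Si8 cells, and as shares of library totals without TMM factors, few genes were higher in the Mxd1-high cells and many were lower. Of 6898 genes at 0.1 per 10,000 or more, 2474 (35.9%) were past 2-fold in the same direction in both libraries, 320 higher (4.64%) and 2154 lower (31.2%). The rule divided exactly these cells, so the counts are a description. The 7 goblet genes, which include Zg16 of the rule, took 43.4% and 44.8% of UMIs in Mxd1-high cells. In all other kept cells they took 18.1% and 13.3%. A larger share for these genes lowers the share of all others, and its part in the count of lower genes was not tested. Ranked by the smaller of the ratios in both libraries, the leading genes were Ido1, 2010109I03Rik, Clca4a, Saa1, Sectm1b, Gbp2, Lamb3, Sprr1a, Pmp22 and Ddx60. Ido1 was 44.0-fold and 80.1-fold higher, Clca4a 30.1-fold and 51.4-fold, and Ddx60, an interferon-induced helicase, 11.2-fold and 13.0-fold.

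The narrower comparison, with goblet cells of lower Mxd1, set out which genes differ with Mxd1 inside the goblet class. UMIs were summed per population and library and fitted with the edgeR quasi-likelihood model, library as a block, and log2 differences below are from that fit with its standard error. Of 9391 genes outside the rule, 3032 (32.3%) passed an adjusted threshold of 0.05, 1558 higher (16.6%) and 1474 lower (15.7%). With library totals in place of TMM factors, 20.8% of 3495 calls were higher in place of 51.4%, since the median log2 difference of all genes moved from -0.03 to -0.42. That setting called 726 of all genes higher and 2769 lower, the background for the library-total counts of lists in this comparison. Mxd1 divided these cells, so the counts describe the division and nothing is read from them. The fit of 4 sums leaves 1 residual degree of freedom, and its spread is borrowed across genes.

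Among genes with at least 0.5 per 10,000 in the higher population, the largest positive difference was that of Clca4a, of the family that includes Clca1 (GRCm38 chromosome 3, 144952480 to 144975045). It was 3.27 and 0.972 per 10,000 in Mxd1-high cells of Si8 1 and Si8 2 and 0.0183 and 0.0131 in the others, a log2 difference of 7.25 ± 0.31.

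Next came 2010109I03Rik on chromosome 15 (74876987 to 74897021), at 11.05 and 2.29 against 0.0795 and 0.0319, a difference of 7.07 ± 0.28. Ido1 (chromosome 8, 24584136 to 24597009) differed by 6.16 ± 0.26. Saa1 (chromosome 7, 46740497 to 46742980), an acute-phase apolipoprotein, was 9.92 and 2.08 against 0.298 and 0.134, a difference of 4.91 ± 0.25. In each of these, the cells of Si8 1 held more than those of Si8 2, and both lay above the comparison cells.

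The remaining 6 genes were Pmp22, Lamb3, Sectm1b, Slfn4, Sprr1a and Gbp2. Pmp22, a membrane protein of cell contacts, stood at 2.40 and 0.966 against 0.0550 and 0.0812. Lamb3, a chain of epithelial laminin, stood at 0.932 and 0.400 against 0.0257 and 0.0334. Sprr1a, a precursor of cross-linked cell envelopes, stood at 3.38 and 0.811 against 0.147 and 0.187. Their log2 differences, in the order named, were 4.84, 4.72, 4.53, 3.90, 3.73 and 3.69.

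The 10 genes with the largest negative difference included Tac1, Guca2b and Hsd11b2. Tac1, which encodes tachykinins, was 0.377 and 0.107 against 3.23 and 0.585, a log2 difference of -2.47 ± 0.26. Guca2b, which encodes uroguanylin, was 0.203 and 0.388 against 1.42 and 1.57. Hsd11b2, which inactivates glucocorticoids, was 0.250 and 0.239 against 1.78 and 1.39.

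The lectin gene Reg4 was 0.0616 and 0.197 against 0.504 and 0.887, and Hspe1, a mitochondrial chaperonin, 0.145 and 0.549 against 1.46 and 1.52. The remaining genes of this kind were Ppp1r1b, Ttr, Hpd, Rap1gapos and Ifitm2, with log2 differences between -2.42 and -1.85. Rap1gapos is annotated as antisense to its neighbour, and the labels do not describe the use of strand in counting. In all 20 genes both libraries lay on the same side, as the naming rule required.

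**Figure D3:**
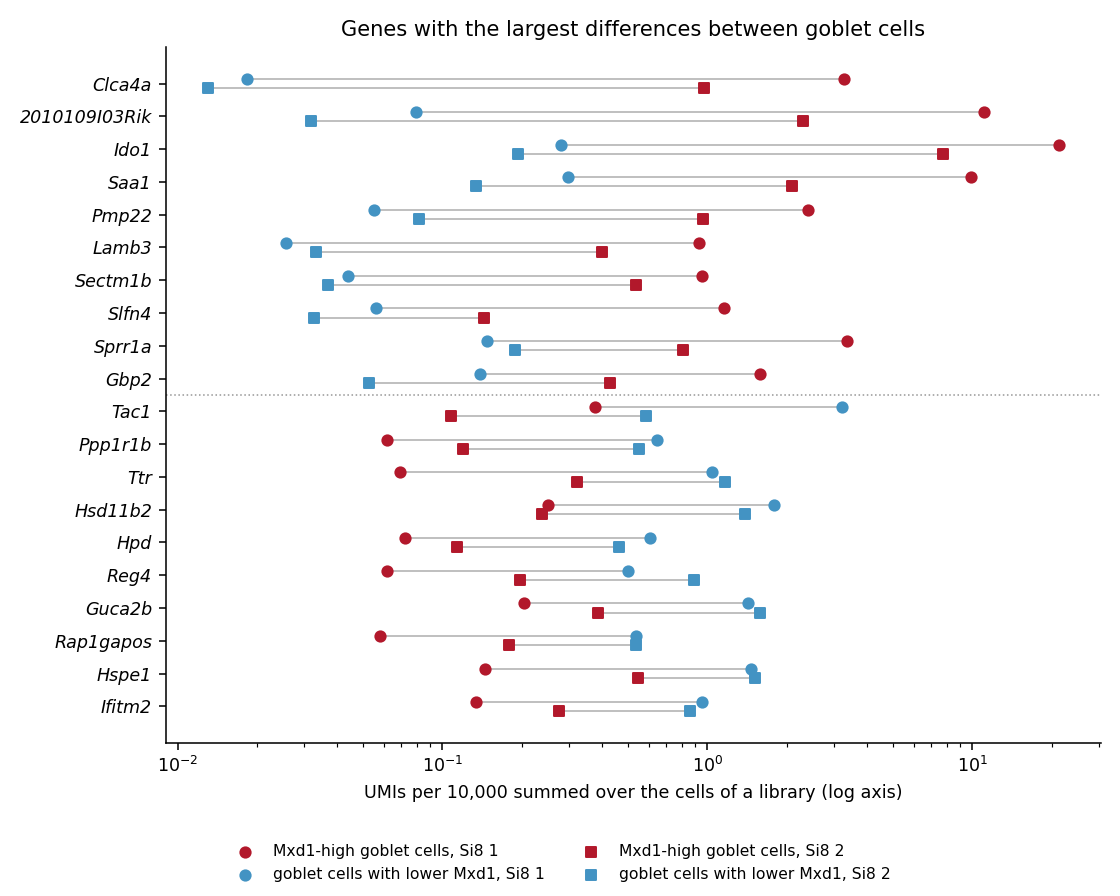
Level in UMIs per 10,000, on a log axis, of the 10 genes with the largest positive difference (above the dotted line) and the 10 with the largest negative difference in Mxd1-high goblet cells against goblet cells with lower Mxd1; circles are Si8 1 and squares Si8 2. Clca4a runs from 0.0183 to 3.27 in Si8 1, and Tac1 from 3.23 to 0.377.

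Among gene lists, interferon response genes stood out. Of 48 tested, 41 were higher and 1 lower, with a median log2 difference of 1.41, beside -0.03 over all genes. Gbp2, a GTPase induced by interferon, was 1.58 and 0.429 per 10,000 against 0.138 and 0.0530. Oas3, a sensor of double-stranded RNA, was 0.769 and 0.441 against 0.115 and 0.0660. Ifit1bl1 was 1.56 and 0.286 against 0.170 and 0.0791, and UMIs of the Ifit, Oas and Gbp families can be split between close copies.

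The interferon genes were higher at both depths. Among barcodes of at least 10000 UMIs 40 of 47 were higher with a median of 1.33, and among those under 10000 UMIs 19 of 29 with a median of 1.05. With library totals 33 were higher and 2 lower, at a median of 1.01. Of the immune markers, the only gene with enough UMIs to be tested was Cd74, which was 0.479 and 0.185 against 1.22 and 0.679.

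The core of the interferon-stimulated response element was searched on both strands as GAAA, 2 bases of any kind and GAAA. Only genes with a promoter in the RefSeq table and a match in the 250 bases before the start could be shown. Of these, the promoters of the 3 higher interferon genes with the largest differences follow. Each is the 250 bases before the start in GRCm38.p6, 5' to 3' on the gene's strand, with the match in capitals, which in Gbp2 and Ifit1bl1 reads as the reverse complement. Gbp2 lies at chr3:142620413-142620662, plus strand, Oas3 at chr5:120777660-120777909, minus strand and Ifit1bl1 at chr19:34601969-34602218, minus strand.
Gbp2: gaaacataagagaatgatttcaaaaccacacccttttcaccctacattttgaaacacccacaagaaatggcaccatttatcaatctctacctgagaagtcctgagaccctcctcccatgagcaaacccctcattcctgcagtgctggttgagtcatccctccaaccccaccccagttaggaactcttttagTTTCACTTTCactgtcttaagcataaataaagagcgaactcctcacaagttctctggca
Oas3: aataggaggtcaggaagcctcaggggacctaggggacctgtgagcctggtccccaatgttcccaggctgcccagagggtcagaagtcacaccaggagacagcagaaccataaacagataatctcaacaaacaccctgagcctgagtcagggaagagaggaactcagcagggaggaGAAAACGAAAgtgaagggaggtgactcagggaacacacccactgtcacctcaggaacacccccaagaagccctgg
Ifit1bl1: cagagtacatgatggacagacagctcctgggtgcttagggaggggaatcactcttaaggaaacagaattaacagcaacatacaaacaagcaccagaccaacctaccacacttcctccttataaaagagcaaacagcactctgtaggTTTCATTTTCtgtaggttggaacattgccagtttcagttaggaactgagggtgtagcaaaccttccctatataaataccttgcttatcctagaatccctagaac
In windows of 250 bases before to 50 after the start, 17 of the 32 interferon genes that were higher and had a promoter held the motif, beside 3.99% of 27025 promoters. Only 78.0% of the 41 genes had an entry, under the 80% needed, so the share over the list is void and is given as a count. The motif was chosen after the values had been seen, and a match is no evidence of binding. Among the markers, Mxd1 and Krt20 had a promoter without it.

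Membrane mucins and the glycocalyx formed a list with no lower gene. Of 17 tested, 15 were higher, at a median of 0.99, and 10 with library totals. Muc3, a membrane mucin of the brush border, was 3.43 and 2.26 per 10,000 against 0.702 and 0.821. Muc4 was 0.921 and 0.489 against 0.252 and 0.183, and Lgals3, a galectin that binds mucins, 22.1 and 23.5 against 6.15 and 8.47.

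Cell-envelope genes had the highest median of the lists described here. Of 11 tested transglutaminases and small proline-rich genes 8 were higher and 0 lower, at a median of 2.94. Tgm5 was 0.373 and 0.262 against 0.0465 and 0.0602. Sprr2a1, Sprr2a2 and Sprr2a3 are near-identical copies whose UMIs may be split. Of 32 claudin, keratin and junction genes 24 were higher and 2 lower, at a median of 0.93, and with library totals 13 and 3. Cldn4, a sealing claudin, was 8.87 and 3.72 against 2.73 and 2.40, while Cldn15, a pore-forming claudin, was 0.497 and 0.698 against 1.53 and 1.495.

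Of 34 genes of surface and villus tip epithelium, 23 were higher and 2 lower, at a median of 0.88. Egfr, the epidermal growth factor receptor, was 0.678 and 0.250 against 0.0770 and 0.0718, and Emp1, a membrane protein of epithelia, 0.569 and 0.203 against 0.0367 and 0.0769. Duoxa2, which matures the peroxide-making oxidase Duox2, was 4.35 and 0.596 against 0.616 and 0.4497, so only Si8 1 stood far above. Nos2, the inducible nitric oxide synthase, was 0.370 and 0.0835 against 0.0147 and 0.0131. This list was drawn up with results of these data known and is no independent evidence of position.

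Secretion genes were split. Of 12 mucus components 4 were higher and 3 lower, at a median of -0.19, and with library totals 3 and 5. Of 25 goblet markers 8 were higher and 4 lower, at a median of -0.17. With library totals 6 were higher and 11 lower, beside 726 and 2769 of all 9391 genes. Fcgbp was 336 and 301 per 10,000 against 122 and 141, Muc2 217 and 201 against 127 and 133, and Tff3 1708 and 1379 against 985 and 974. Agr2 was 101 and 167 against 290 and 280. Dmbt1, a mucosal scavenger protein, was 0.0544 and 0.227 against 0.661 and 0.488.

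Of 24 granule exocytosis genes 11 were higher and 2 lower, and with library totals 8 and 4. Rab27a was higher, at 1.45 and 1.28 against 0.588 and 0.654, and Sytl2, its effector, at 4.73 and 3.60 against 1.82 and 1.94. Of 22 secretory transcription factors 9 were higher and 2 lower, at a median of 0.25 that turned to -0.14 with library totals, where 5 were higher and 6 lower. Atoh1, which sets secretory fate, was 2.90 and 2.56 against 1.78 and 1.76, while Sox9, a crypt factor, was 0.0218 and 0.0298 against 0.245 and 0.179.

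Of 29 genes of apoptosis and shedding 14 were higher and 2 lower at a median of 0.68, but with library totals 4 were higher and 5 lower. Birc3, an inhibitor of apoptosis, was 0.424 and 0.292 against 0.153 and 0.123, and Casp8, an initiator caspase, 1.29 and 0.638 against 0.539 and 0.414. The higher members included inhibitors and inducers of cell death. Of 20 genes of microbial sensing and the inflammasome 8 were higher and 3 lower, with Casp4, a sensor of bacterial lipopolysaccharide, at 1.16 and 0.674 against 0.465 and 0.331, and Pycard, the inflammasome adaptor, at 0.718 and 1.65 against 3.30 and 3.96. Genes of immediate early and dissociation stress had 6 of 33 higher (18.2%, beside 16.6% of all genes) and 3 lower, at a median of -0.13. With library totals 4 were higher and 14 lower, at a median of -0.52, beside 726 and 2769 of all 9391 genes at a median of -0.42.

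Ribosomes were the most uniform list. Of 76 cytosolic ribosomal protein genes 75 were lower and 0 higher, at a median of -1.21. Rps2 was 3.16 and 4.29 per 10,000 against 15.2 and 14.7, and Rpl3 2.15 and 3.08 against 10.3 and 10.5. The count was 75 of 76 also among barcodes of at least 10000 UMIs and among those under 10000, with medians of -1.06 and -1.36.

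Genes of ribosome biogenesis and other Myc targets were lower in 26 of 34 and higher in 0, at a median of -1.48. Srm, which makes spermidine, was 0.0435 and 0.0835 against 0.427 and 0.289. Nuclear genes of oxidative phosphorylation were lower in 25 of 39 and higher in 0, at a median of -0.61, and lower in 38 with library totals, with Ndufa4 at 1.68 and 3.31 against 7.35 and 7.26. Mitochondrially encoded genes were lower in 3 of 13 (23.1%, beside 15.7% of all genes), and in 9 of 13 with library totals. Of these, mt-Nd1 was at 8.85 and 9.49 against 21.9 and 19.2. Of 49 genes of endoplasmic reticulum folding 10 were lower (20.4%, beside 15.7% of all genes) and 1 higher. With library totals 23 were lower and 0 higher, beside 2769 lower and 726 higher of all 9391 genes. Of 24 cycling genes 6 were lower and 0 higher, and with library totals 13 and 0.

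Of 14 tested genes of the Myc and Mxd network outside Mxd1, 0 were higher and 1 lower, namely Mxd4 at 0.265 and 0.346 against 0.637 and 0.555, and 3 were lower with library totals. Myc itself had 0.0145 and 0.00596 per 10,000 against 0.0379 and 0.0370 and did not pass the threshold. Max, the shared partner, was 0.388 and 0.340 against 0.452 and 0.355.

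The E-box CACGTG, the site that Myc and Mxd1 share with many other factors, was searched on both strands in the same windows. Of the 26 ribosome biogenesis and Myc target genes that were lower, 24 had a promoter (92.3%) and 8 of these held the motif (33.3%). The share was 14.2% over all 1187 lower genes with a promoter, 12.3% over all tested genes and 8.09% over all 27025 promoters. The list was drawn up to hold Myc targets, so its share cannot speak about the Mxd1-high cells. The share among genes of the list that were not lower was not computed. Of 57 ribosomal protein genes with a promoter 6 held it, but only 76.0% of that list had an entry, so its share is void. The 2 lower genes of the ribosome biogenesis and Myc target list with the largest difference and a match within 250 bases before the start are printed with the E-box in capitals. Nme1, a nucleoside diphosphate kinase, lies at chr11:93968273-93968522, minus strand and Apex1, a DNA repair endonuclease, at chr14:50924699-50924948, plus strand.
Nme1: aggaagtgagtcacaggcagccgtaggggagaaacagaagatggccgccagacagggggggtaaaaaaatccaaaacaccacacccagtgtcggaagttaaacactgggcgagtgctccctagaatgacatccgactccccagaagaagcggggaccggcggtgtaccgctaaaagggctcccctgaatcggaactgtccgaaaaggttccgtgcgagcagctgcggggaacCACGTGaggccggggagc
Apex1: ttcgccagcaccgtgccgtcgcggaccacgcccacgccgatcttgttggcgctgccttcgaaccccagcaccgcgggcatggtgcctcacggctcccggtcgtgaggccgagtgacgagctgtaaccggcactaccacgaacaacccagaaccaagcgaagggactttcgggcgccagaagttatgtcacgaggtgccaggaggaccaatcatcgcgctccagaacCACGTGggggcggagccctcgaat
The match began 18 bases before the start in Nme1 and 24 in Apex1. Nme1 was 0.533 and 1.11 per 10,000 against 3.90 and 3.32, and Apex1, with 1 and 6 UMIs in the Mxd1-high cells, 0.00363 and 0.0358 against 0.0721 and 0.0667. The data do not show which factor, if any, sat on these sites.

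The colon libraries, which the rule did not use, allowed the same division to be made in other cells. DC goblet cells were taken with the Mxd1 and absorptive criteria and Zg16 of at least 100, since the colon holds less Zg16. This gave 129 Mxd1-high cells in DC 1 and 135 in DC 2 against 343 and 916 with lower Mxd1. All 1859 and 4917 kept DC cells met the absorptive criterion, so it removed no cell there. The DC cells were thus not screened for absorptive genes as those of Si8 were. Depth moved the same way, with medians of 4485 and 5592 UMIs against 12048 and 10492. Of 10172 genes, 1797 (17.7%) passed the edgeR threshold there, 1064 higher (10.5%) and 733 lower (7.21%). Mxd1 divided the DC cells too, so these counts describe the division. The fit of 8 sums leaves few residual degrees of freedom, so its p-values rest on spread borrowed across genes.

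Of 22 named genes and markers, 22 had the same direction in DC, and 20 also passed the threshold there. Among genes tested in both, 673 were higher in both tissues, 43.7% of the 1539 higher in Si8 and 68.7% of the 979 higher in DC, where 10.6% of all genes tested in both were higher. In the other direction 500 were shared, 34.2% of 1460 and 71.4% of 700, where 7.57% of all were lower in DC. The opposite direction was called for 3 of the genes higher in Si8 and 21 of those lower.

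By list, 25 of 45 interferon genes were higher in DC and 1 lower, 13 of 18 membrane mucin and glycocalyx genes were higher, and 10 of 12 transglutaminase and small proline-rich genes. All 76 ribosomal protein genes were lower, at a median of -1.19. Saa1 was 63.0 and 35.6 per 10,000 in Mxd1-high DC cells against 2.08 and 1.67 (log2 difference 4.93, edgeR adjusted p = 1.7e-14). Ido1 was 0.386 and 0.227 against 0.00994 and 0.0182 (4.44, edgeR adjusted p = 1.2e-08), so its ratio was large in DC while its level stayed far under that of Si8.

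**Figure D4:**
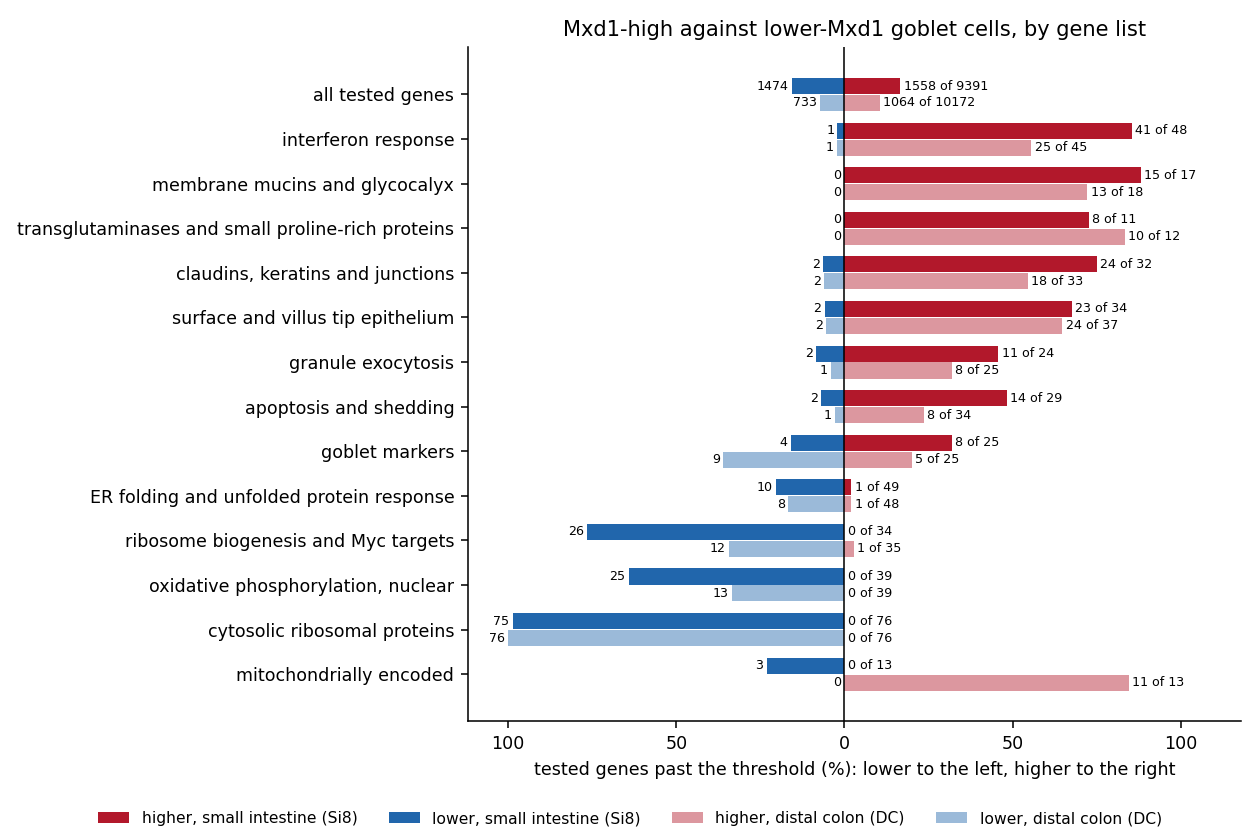
Share of tested genes past the edgeR threshold in Mxd1-high against lower-Mxd1 goblet cells, by list, lower to the left and higher to the right, in Si8 (dark bars) and DC (light bars), with counts at the bar ends. Of interferon genes 41 of 48 and 25 of 45 were higher, and of ribosomal protein genes 75 and 76 of 76 were lower.

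A test of the difference between tissues, added after seeing the data, found 183 of 10172 genes (1.8%). Among the 22 named genes and markers 9 passed. The difference was larger in Si8 for Clca4a (7.27 against 4.82), 2010109I03Rik, Pmp22, Lamb3 and Gbp2, and larger in DC for Krt20 (1.66 against 3.84, edgeR adjusted p = 4.4e-05) and Clca1. Ppp1r1b and Hsd11b2 were lower by more in Si8. Mitochondrially encoded genes differed as a list, with 11 of 13 past the threshold and a median of DC minus Si8 of 1.22.

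**Figure D5:**
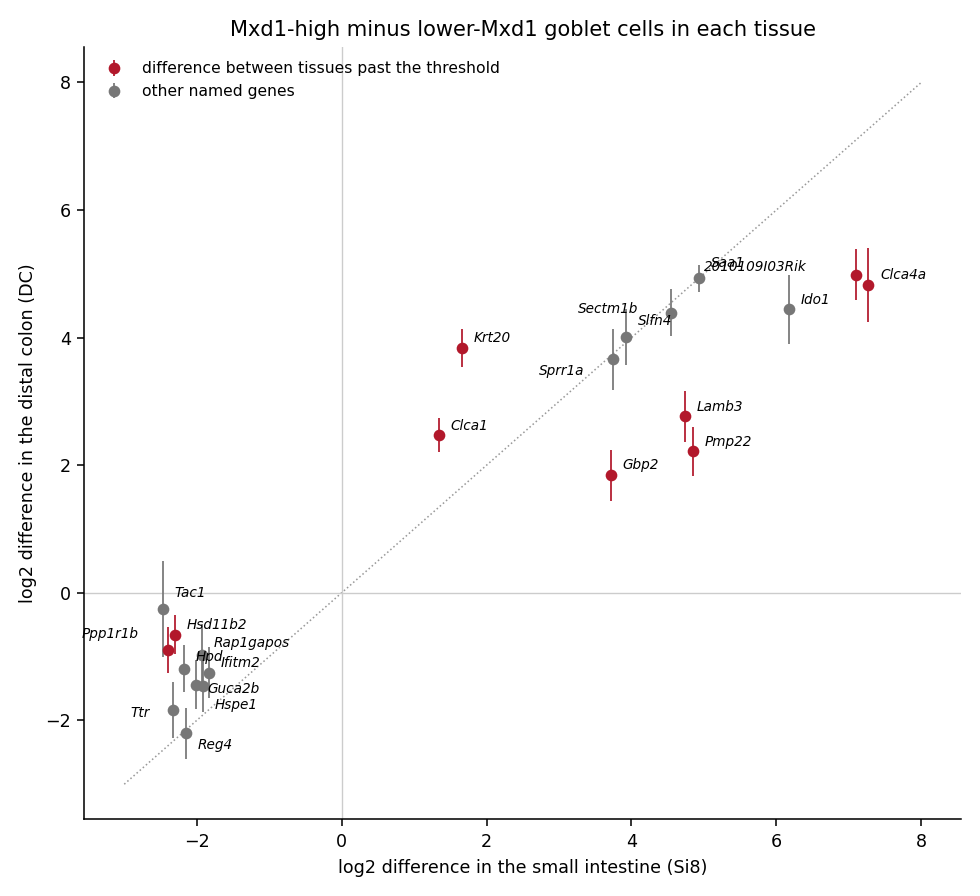
Log2 difference between Mxd1-high and lower-Mxd1 goblet cells in Si8 (x axis) and DC (y axis) for the 22 named genes and markers; bars are the standard error of the difference between tissues, and red points passed its test. All 22 share their sign, and Pmp22 (4.85 and 2.22) and Krt20 (1.66 and 3.84) lie on opposite sides of the dotted line of equal differences.

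Last, Mxd1-high goblet cells were compared between tissues. The rule did not use the tissue, but the shares of cells that met it are set by its own genes. The exact same criteria were met by 5.22% and 2.01% of kept DC cells, against 19.2% and 4.92% in Si8, and the ranges overlapped. An exact two-sided permutation test over libraries gave p = 0.667, where 0.333 is the smallest that 2 against 2 libraries allow. The test could therefore not have passed 0.05, and nothing is read from it. The Zg16 minimum of 500 was kept here, although the colon holds less Zg16. Of DC cells with enough Mxd1, 54 of 151 and 173 of 272 failed on Zg16 alone. In Si8 these were 56 of 388 and 7 of 134. Depth and the sort can also set the shares of kept cells. Among barcodes of at least 10000 UMIs the shares were 0.330% and 0.395% in DC.

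For levels, the 129 and 135 DC cells defined above were set against the Si8 cells. Of 6965 genes outside the rule, 1475 (21.2%) passed the edgeR threshold, 766 higher in DC (11%) and 709 lower (10.2%). With library totals 85.1% of 2310 calls were higher in place of 51.9%, as the median of all genes moved from 0.02 to 0.61. That setting called 1966 of all genes higher in DC and 344 lower, the background for library-total counts of lists between tissues. Median depth was 4485 and 5592 UMIs in DC against 7246 and 14953.5, and mitochondrial UMIs took 10.6% and 9.57% against 1.38% and 1.83%. The part of depth and RNA quality in the tissue differences was not tested.

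The genes with the largest difference towards Si8 included the lectins Reg3b and Reg3g, the galectin Lgals2, Tm4sf5 and Tm4sf4. Reg3b, a lectin that acts on bacteria, was 31.1 and 23.6 per 10,000 in Si8 and had no UMI in DC, at least 1530.0-fold lower there against a floor of 3 counts over both libraries (edgeR adjusted p = 1.5e-05). Reg3g was 72.3 and 40.2 in Si8 and had 2 UMIs in DC, a 4885-fold ratio (95% interval for counting error 1352 to 40341). Lgals2, a galectin, was 82.2 and 94.4 with 3 UMIs in DC, a ratio of 4696 (1607 to 22772). Within Si8, Reg3b was 62.6 and 39.9 and Reg3g 96.3 and 57.4 in Si8 goblet cells with lower Mxd1, above the Mxd1-high cells in both libraries.

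The membrane genes Tm4sf5 and Tm4sf4 were 6.37 and 7.44, and 5.67 and 5.59 in Si8, and had no UMI in DC, at least 367-fold and 305-fold lower. Serpina1b, a protease inhibitor, was at least 264-fold lower. Defa24, Defa20, Gm15284 and Gm15308 are defensin genes or lie beside them, are close in sequence and are known from Paneth cells, and the part of free RNA in their levels was not tested. Defa20 was 0.812 and 4.65 in Si8 1 and Si8 2.

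The markers Krt20 and Ido1 were also higher in Si8. Krt20 was 6.36 and 5.25 in DC against 21.98 and 16.5 (log2 difference -2.30 ± 0.31, edgeR adjusted p = 0.00090). Ido1 differed by -6.16 ± 0.59 (edgeR adjusted p = 0.00018). Clca1 did not pass, at 228 and 130 in DC against 166 and 160, and its direction turned with library totals.

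The genes with the largest difference towards DC had no UMI in the Si8 cells. Car1, a carbonic anhydrase, was 9.68 and 4.37 in DC, at least 984-fold higher, and Atp12a, a proton pump, 9.87 and 3.96, at least 963-fold higher. Aqp8, a water channel, was 2.86 and 1.69, and Best2, a bicarbonate channel of colonic goblet cells, 1.11 and 1.57, at least 324-fold and 203-fold higher. Hoxb13, a posterior homeobox gene, was 2.83 and 3.23, at least 452-fold higher, and the mucus cross-linker Tgm3 5.16 and 4.65, at least 719-fold higher. Car2, 2310079G19Rik, Ahnak2 and Slpi also had no UMI in the Si8 cells. Within DC, Best2 and Car2 were lower in the Mxd1-high cells than in goblet cells with lower Mxd1, where Best2 was 3.50 and 2.72 and Car2 7.06 and 5.15, while Car1 was higher, at 9.68 and 4.37 against 0.567 and 0.593.

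By list, 27 of 41 interferon genes were lower in DC cells and 0 higher, at a median of -1.83, and 21 were lower with library totals. Oas3 was 0.0571 and 0.0325 in DC against 0.769 and 0.441, and Isg15, a ubiquitin-like protein, 0.114 and 0.314 against 2.68 and 0.573. Of 25 ion, proton and water transport genes 17 were higher in DC and 3 lower. Of 18 membrane mucin and glycocalyx genes 10 were lower and 2 higher, and 4 and 2 with library totals, the former including Muc3a at 0.0571 and 0.162 against 2.01 and 1.32 and the latter Muc1 at 0.971 and 0.336 against 0 and 0.00596. Muc3 was 7.70 and 9.40 in DC against 3.43 and 2.26, so Muc3 and Muc3a differed in opposite directions, and UMIs may be split between these close copies.

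Of 76 ribosomal protein genes 0 passed the edgeR threshold between tissues in either direction, at a median of 0.09. At an unadjusted p under 0.05 the count was also 0, and with DESeq2 0. With library totals 10 were higher, beside 1966 of all 6965 genes, a smaller share than over all genes. All 13 mitochondrially encoded genes were higher in DC, at a median of 1.71, with mt-Co2 at 114 and 110 against 19.3 and 22.3. Gsdmc4, a gasdermin of surface epithelium, was 1.27 and 1.64 in DC against 0.0218 and 0.0298. Within DC, Gsdmc4 was 1.11 and 1.73 in goblet cells with lower Mxd1 and did not pass the threshold between these populations.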

How the data were processed

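The deposited files held UMI counts per gene and barcode, filtered to cells by the authors. Cell Ranger 2.1.1 and mm10 are named in the submitters' processing notes, and no annotation version was stated. Coordinates were read from GENCODE M21 by Ensembl identifier, where 98.8% of 28694 were found. The Mxd1-high cells, the gene lists and the rules were chosen with earlier results of these data known. Counts were summed per population and library and tested with edgeR 4.0.16 in R 4.3.3 (TMM, filterByExpr with a minimum count of 10, quasi-likelihood, Benjamini-Hochberg at 0.05), with library as a block inside Si8. The test within DC and the test of the difference between tissues came from 1 fit of 8 sums added after seeing the data, as were the Ido1 ranges, the thinning to 4000 UMIs, the reference populations of defensin-rich cells, the 0.1 per 10,000 minimum, the interferon motif and the floors. The text names the 10 genes per direction with the largest difference past the threshold, with a mean of at least 0.5 per 10,000 in the higher population and the populations apart in the libraries, and up to 4 called genes per list, beside markers and genes chosen after their values were seen. DESeq2 1.42.0 was an alternative. Doublet scores came from Scrublet in scanpy 1.11.5. Scripts were tested on simulated data. Intervals and floors cover counting error only.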

Additional observations from a re-analysis of the deposited data

Results flagged for a closer look

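Of 113 genes named or listed, 18 differed between tissues in how Mxd1-high goblet cells stood apart from goblet cells with lower Mxd1, by the edgeR interaction test adjusted over all 10172 genes. This test was chosen after seeing the data. Values below are the log2 difference in DC minus that in Si8.

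Dmbt1, a mucosal scavenger protein, had opposite directions, -1.80 in Si8 and 1.65 in DC, a gap of 3.46 (edgeR adjusted p = 9.4e-06). Foxa2, a secretory transcription factor, was 1.42 in Si8 and -0.34 in DC, a gap of -1.75, and its difference within DC did not pass the threshold. The mitochondrially encoded genes mt-Nd1, mt-Nd3 and mt-Nd2 had differences below 0 in Si8 and above 0 in DC, with gaps of 1.42, 1.25 and 1.29. The Mxd1-high cells of DC had a median of 10.6% and 9.57% mitochondrial UMIs, beside 1.38% and 1.83% for those of Si8, and the part of this in the gaps was not tested.

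The difference was larger in Si8 for Clca4a (-2.45), 2010109I03Rik (-2.11), Pmp22 (-2.64), Lamb3 (-1.97), Gbp2 (-1.87), Egfr (-1.99), Birc3 (-1.42) and the membrane mucin Muc3 (-1.17). It was larger in DC for Krt20 (2.18), Clca1 (1.13) and Ifit1bl1 (2.32), an interferon-induced gene with close copies. Ppp1r1b (1.51) and Hsd11b2 (1.64) were lower in Mxd1-high cells of both tissues, by more in Si8.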

How the results depend on the processing

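Against goblet cells with lower Mxd1, 3032 genes passed the threshold, 1153 with DESeq2, 1935 with each cell thinned to 5000 UMIs, 2115 without the library block and 932 of 3239 tested among barcodes under 10000 UMIs, a setting chosen after seeing the data. Of the calls 51.4% were higher, 63.2% with DESeq2 and 20.8% with library totals. Leaving out a Si8 library left 1 sum per population, a value with no test. Tac1 no longer passed without the block (edgeR adjusted p = 0.066), nor Hspe1 with DESeq2 (adjusted p = 0.057). Between tissues, 1475 genes passed, 977 with DESeq2, 2310 with library totals, 863 with thinned cells and 1028 to 1340 when each library was left out, the lowest without Si8 1, where the lone library is assumed to vary like the others. With replicate number as a block 2518 genes passed; deviations of replicate 1 correlated between tissues at r = 0.48 over 2562 genes, but 2 pairs do not show that the numbers pair the libraries. Against all other kept cells 2474 genes were past a log2 ratio of 1, 875 past 2, and 2977 to 3173 with either library left out. The direction turned for Anpep, an enterocyte peptidase, at -1.02 without Si8 1 and 1.92 without Si8 2; for Lyz1 at 0.087 among barcodes under 10000 UMIs; and for Clca1 between tissues at 0.15 with library totals and 0.087 with Zg16 of 500 in DC. The causes were not tested. Over 113 genes against lower-Mxd1 cells, 1348 values under alternatives kept direction and side of the threshold and 83 lost the threshold; between tissues, over 108 genes, 1169 and 90 did. With 4006 UMIs in the shallowest barcode, genes near 1 UMI per cell cannot be read cell by cell.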
